A study of Rattus norvegicus with 16 samples.

Results

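The comparison reported here sets CD103- cells of the rat spleen, titled DC-like by the labels, against splenic type 2 conventional dendritic cells (cDC2). Its members were chosen by array title, which gave 4 of the 16 arrays of the series, 2 for each group, and all 23188 transcript clusters measured on them (a transcript cluster is the probe set for an annotated gene). Splenic CD103- cells were sorted as propidium iodide-negative CD45+ MHC class II+ CD103- CD45R- CD172a+ cells. Splenic cDC2 were sorted as propidium iodide-negative CD45+ MHC class II+ CD103+ CD172a+ cells, for which the labels name no CD45R gate. Both came from male Lewis rats with no treatment named, and from digested spleens whose low-density cells had been collected on an OptiPrep gradient. The other 12 arrays held splenic cDC1 and macrophages and the same 4 populations of the thymus, and they enter here through the shared estimate of the spread and where they are named. Nothing in the labels ties the arrays of a group to separate animals, so every p-value measures the spread between these samples, which may be technical.

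Conventional dendritic cells sample their surroundings, process antigen and present it to T cells. Those of type 1 (cDC1) are known for taking up dead cells and for priming CD8 T cells, and those of type 2 for presenting to CD4 T cells. In the mouse spleen, Notch signalling through Notch2 is needed by part of the cDC2. Monocytes are a separate lineage that enters tissues from the blood, where it can give rise to macrophages and to cells that carry MHC class II and share surface proteins with cDC2, CD172a among them.

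The 16 array medians lay between 5.87 and 5.95 in log2 signal, and all levels below are in that unit as deposited. Replicate arrays differed by a root mean square of 0.427 in CD103- cells and 0.430 in cDC2. Odorant receptors of the nose gave the background level, and the 95th percentile of 1159 olfactory receptor clusters was 5.78. Where the mean of one group was under this level, the difference is only a bound measured from it and is written as at least, or as a value or below. Medians over gene lists use the fitted differences. Differences are CD103- minus cDC2 with the standard error of the limma model after the ± sign, and a gene is called higher or lower where the Benjamini-Hochberg adjusted p was under 0.05.

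The antigens of the sort were checks on the labels. Itgae, which encodes CD103, read 8.09 and 7.77 in CD103- cells, against 13.10 and 13.43 in cDC2. The groups stood well apart, although CD103- cells lay above the background level. Sirpa, which encodes CD172a, read 18.23 and 18.37 in CD103- cells, against 17.93 and 18.18 in cDC2 (0.25 ± 0.44, adjusted p = 0.853). Ptprc, which encodes CD45 and its CD45R form, read 17.97 and 17.95 in CD103- cells, against 17.51 and 17.87 in cDC2 (0.27 ± 0.21, adjusted p = 0.556). Both genes were thus near the top of the scale in both sorts, and neither difference was called.

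Of the 23188 clusters, 1115 were higher in CD103- cells (4.81% of those tested) and 977 lower (4.21%), 9.02% in all. These shares are the base for the list counts below. The lower count fell most with an array left out, to 539 without splenic cDC2 replicate 2, 593 without splenic CD103- replicate 2 and 617 without splenic CD103- replicate 1. Differences or bounds of at least 4 log2 units were nearly one-sided, with 82 clusters higher and 7 lower. For 45.2% of all clusters both arrays of one group lay above both arrays of the other, so that a lack of overlap is common here. The median called difference was 1.31 in size and the median SE 0.26. In both groups 10737 clusters (46.3%) averaged below background. Of those called higher, 198 stood on a cDC2 mean below background, and of those called lower, 106 had a CD103- mean below it.

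Cd14, Nos2, Fcnb and Ly6c were among the largest differences upward. Cd14, the co-receptor that hands lipopolysaccharide to Toll-like receptor 4, read 15.18 and 14.21 in CD103- cells, against 6.25 and 5.50 in cDC2 (8.82 ± 0.31, adjusted p = 1.04e-11). Both CD103- arrays thus stood far above both cDC2 arrays, of which 1 lay below background. Nos2, the inducible nitric oxide synthase, read 13.95 and 13.23 in CD103- cells, against 5.26 and 5.57 in cDC2 (at least 7.81, adjusted p = 4.55e-10), and the other cluster for this gene was higher too. Fcnb, a ficolin that binds sugars on microbes, read 16.04 and 15.60 in CD103- cells, against 7.43 and 7.48 in cDC2 (8.37 ± 0.39, adjusted p = 1.38e-10). Ly6c, a surface antigen of the Ly6 family that marks inflammatory monocytes in the mouse, read 15.86 and 15.78 in CD103- cells, against 8.76 and 8.67 in cDC2 (7.11 ± 0.25, adjusted p = 1.04e-11). All 3 clusters for Ly6c were higher, and the levels of neither group came near the other. Other genes among the 15 largest were the guanine deaminase Gda (at least 7.61), the sphingomyelin synthase Sgms2 (at least 5.67) and the niacin receptor Hcar2 (6.34).

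Downward differences were fewer and mostly smaller. Faim2, an inhibitor of Fas-mediated cell death, read 6.18 and 5.64 in CD103- cells, against 12.52 and 12.55 in cDC2 (-6.63 ± 0.39, adjusted p = 2.28e-09). Xcr1, the receptor for XCL1 that defines cDC1, read 4.00 and 4.15 in CD103- cells, against 8.77 and 9.82 in cDC2 (-3.51 or below, adjusted p = 7.6e-08). Both cDC2 arrays stood far above both CD103- arrays for Xcr1, and both lay under the 17.38 and 17.63 of the splenic cDC1 arrays. Il22ra2, a soluble receptor that traps interleukin 22, read 8.24 and 6.88 in CD103- cells, against 12.97 and 12.39 in cDC2 (-5.12 ± 0.36, adjusted p = 2.67e-08). The orphan receptor Gpr82 (-4.14), the catenin Ctnnd2 (-2.70 or below), Lpar3, a receptor for lysophosphatidic acid (-3.34 or below), the reticulon Rtn1 (-3.53) and the histamine receptor Hrh2 (-3.49) followed. A cluster with only a provisional symbol, LOC102551901, had the largest fall (-7.60 ± 0.35, adjusted p = 1.38e-10) and was singled out after its values were seen.

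**Figure D1:**
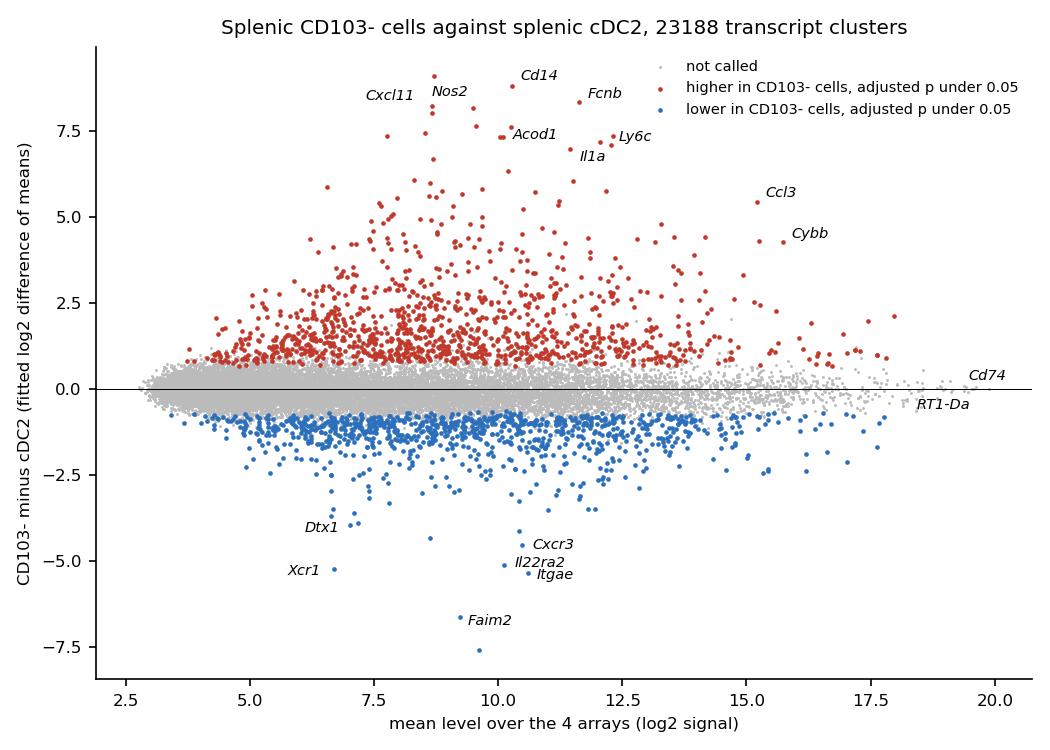
Fitted log2 difference between splenic CD103- cells and splenic cDC2 (y axis) against the mean level over the 4 arrays in log2 signal (x axis), with 1 point per transcript cluster, red where higher and blue where lower in CD103- cells at an adjusted p under 0.05, grey otherwise. Fitted values are drawn also where a group mean lay below background, Cd14, Nos2 and Fcnb stand near the top and Faim2 and Xcr1 near the bottom, and the MHC class II genes at the right edge lie near 0.

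Most genes of the monocyte lineage were higher in CD103- cells. Of the 27 measured, 16 were higher in CD103- cells and 0 lower, with 11 not called and a median difference of 1.52 (the median of all clusters was -0.04). Ccr2, the receptor that monocytes use to leave the bone marrow, read 17.21 and 17.61 in CD103- cells, against 12.56 and 13.61 in cDC2 (4.33 ± 0.56, adjusted p = 3.65e-05). It was abundant in both groups and did not overlap between them. Fcgr1a, the high-affinity IgG receptor, read 10.96 and 11.24 in CD103- cells, against 6.36 and 6.02 in cDC2 (4.91 ± 0.31, adjusted p = 6.63e-09). S100a4, a calcium-binding protein of motile cells, differed by at least 4.51, adjusted p = 1.38e-10. Csf3r, the receptor for granulocyte colony-stimulating factor, differed by at least 2.96, adjusted p = 3.38e-08. The lectin receptor Clec12a differed by 3.74 and the proteoglycan Vcan by at least 1.68. Splenic macrophages read 15.79 and 15.56 for Fcgr1a, 13.73 and 13.52 for S100a4 and 12.91 and 13.34 for Csf3r, above both CD103- arrays. They stood near CD103- cells for Clec12a (9.91 and 10.15), Vcan (7.62 and 7.90), Fcnb (15.46 and 16.31) and Ly6c (15.65 and 15.92). Ccr2 was lower in them, at 12.25 and 13.36. The other genes of this paragraph thus do not set monocytes apart from macrophages.

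Most macrophage genes were higher as well, though the members named here stood below their level in sorted splenic macrophages. Of the 25 measured, 18 were higher in CD103- cells and 1 lower, with 6 not called and a median difference of 2.40. Siglec1, the sialic acid receptor of marginal zone macrophages, read 11.44 and 12.09 in CD103- cells, against 4.89 and 7.96 in cDC2 (5.34 ± 0.59, adjusted p = 5.18e-06). C1qb, a chain of complement C1q, read 9.55 and 11.25 in CD103- cells, against 5.81 and 6.67 in cDC2 (4.16 ± 0.57, adjusted p = 5.96e-05), with 17.85 and 17.72 in macrophages. CD103- replicate 2 stood above replicate 1 for C1qb, and this held for 23 of the 25 macrophage genes. Axl, a receptor for dying cells, differed by at least 4.31, Gpnmb, a glycoprotein of lysosome-rich macrophages, by 4.80, and the hyaluronan receptor Lyve1 by at least 4.19. Macrophages read 13.67 and 13.60 for Siglec1 and 12.84 and 10.87 for Lyve1, nearer to CD103- cells than for C1qb.

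The summed level of a list is the log2 of its summed unlogged signals, in which the brightest genes weigh most. For the macrophage genes it was 15.80 and 16.34 in CD103- cells, against 15.16 and 15.08 in cDC2, with 20.99 and 20.90 in macrophages. Vcam1, the member that was lower, read 14.17 and 13.94 in cDC2 and so weighs in their sum. The median difference of the macrophage genes was 1.97 between the arrays numbered 1 and 2.93 between those numbered 2. Cd163, the scavenger receptor of red pulp macrophages, read 5.29 and 7.28 in CD103- cells, against 4.74 and 6.19 in cDC2, and was not called (adjusted p = 0.41). Without CD103- replicate 1 the difference was 1.82 and was called (adjusted p = 0.0186). Macrophages held it at 16.15 and 15.80. Spic, a transcription factor of red pulp macrophages in the mouse, was higher (at least 2.82). Vcam1, an adhesion molecule of those macrophages, was lower (-1.12 ± 0.29, adjusted p = 0.0204), called no longer without cDC2 replicate 1 (adjusted p = 0.133), without cDC2 replicate 2 (adjusted p = 0.06) and without CD103- replicate 1 (adjusted p = 0.226). The part that admixed macrophages may have in these differences was not tested. In sorted populations, fewer cells of a type and less RNA per cell cannot be told apart.

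Most genes shared by conventional DCs were lower in CD103- cells. Of the 14 measured, 1 were higher in CD103- cells and 8 lower, with 5 not called and a median difference of -0.85. With an array left out, the number lower was 3 without splenic cDC2 replicate 1, 3 without splenic cDC2 replicate 2, 5 without splenic CD103- replicate 1 and 3 without splenic CD103- replicate 2. Zbtb46, a transcription factor of conventional DCs, read 8.25 and 8.85 in CD103- cells, against 10.46 and 10.68 in cDC2 (-2.02 ± 0.30, adjusted p = 0.000137). Kmo, an enzyme of tryptophan breakdown, read 12.52 and 12.55 in CD103- cells, against 14.05 and 14.69 in cDC2 (-1.84 ± 0.27, adjusted p = 0.000126). The groups did not overlap for either gene. Flt3, the growth factor receptor of DC precursors, read 12.79 and 12.75 in CD103- cells, against 13.58 and 14.06 in cDC2 (-1.05 ± 0.26, adjusted p = 0.0122), called no longer without cDC2 replicate 2 (adjusted p = 0.162), without CD103- replicate 1 (adjusted p = 0.0617) and without CD103- replicate 2 (adjusted p = 0.0722). The exception was Adam19, a membrane metalloproteinase, at 2.81 ± 0.26, adjusted p = 7.09e-07.

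Genes of cDC1 were divided. Of the 18 measured, 2 were higher in CD103- cells and 8 lower, with 8 not called and a median difference of -0.68. Itgae, by which the sorts were gated apart, is among those lower, so its call was set by the gate. It also enters the summed level given below. The lower count was 4 without splenic cDC2 replicate 2. Clec9a, a receptor for dead cells, read 5.97 and 6.30 in CD103- cells, against 8.86 and 10.05 in cDC2 (-3.32 ± 0.32, adjusted p = 9.27e-07), with 17.50 and 17.58 in cDC1. Gcsam, a signalling adaptor of germinal centre B cells, differed by -3.13 or below. Irf8, the transcription factor on which cDC1 and monocytes depend, went the other way and read 12.83 and 12.15 in CD103- cells, against 10.21 and 11.03 in cDC2 (1.87 ± 0.30, adjusted p = 0.00037). Batf3, its partner in cDC1, was lower (-0.99 ± 0.25, adjusted p = 0.017), called no longer without cDC2 replicate 2 (adjusted p = 0.15) and without CD103- replicate 1 (adjusted p = 0.147). Splenic cDC2 replicate 2 stood above replicate 1 for 17 of the 18 cDC1 genes, and their summed level was 15.39 and 15.33 in CD103- cells, against 15.98 and 16.33 in cDC2, with 20.29 and 20.45 in cDC1. Whether cDC1 in the cDC2 sorts had a part in the lower values was not tested.

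Most cDC2 genes were not called, though the share called, 31.8%, was above the 9.02% of all clusters. Of the 22 measured, 3 were higher in CD103- cells and 4 lower, with 15 not called and a median difference of -0.22. Cd7, a surface protein of lymphocytes and DCs, read 15.17 and 14.83 in CD103- cells, against 17.57 and 17.19 in cDC2 (-2.38 ± 0.25, adjusted p = 2.78e-06). Ccr6, the receptor for CCL20, read 10.61 and 11.20 in CD103- cells, against 13.21 and 13.19 in cDC2 (-2.30 ± 0.24, adjusted p = 2.88e-06). Epcam, an epithelial adhesion molecule also found on DCs, read 5.95 and 6.01 in CD103- cells, against 9.23 and 8.36 in cDC2 (-2.82 ± 0.34, adjusted p = 1.8e-05). These 3 were lower on both CD103- arrays. The lectin receptors Clec12a (3.74 ± 0.29, adjusted p = 9.83e-08), Clec10a (1.53 ± 0.32, adjusted p = 0.00414) and Clec4a3 (0.89 ± 0.21, adjusted p = 0.0111) were the 3 members higher. The call of Clec10a was lost without cDC2 replicate 1 (adjusted p = 0.0921), and that of Clec4a3 without cDC2 replicate 2 (adjusted p = 0.134), without CD103- replicate 1 (adjusted p = 0.0603), without CD103- replicate 2 (adjusted p = 0.0652) and with the 4 arrays alone (adjusted p = 0.0622). Cd4, found on rat cDC2 and macrophages, differed by -0.54 ± 0.55, adjusted p = 0.696 and was not called. The lectin receptor Clec4a2 was also not called (-0.70 ± 0.34, adjusted p = 0.274).

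Most genes of the Notch pathway were not called, though the share called, 26.9%, was above the 9.02% of all clusters. Of its 26 measured genes, 4 were higher in CD103- cells and 3 lower, with 19 not called and a median difference of 0.05. The higher count was 2 without splenic cDC2 replicate 2 and 1 without splenic CD103- replicate 1. The receptors Notch1 (-0.07 ± 0.31, adjusted p = 0.949) and Notch2 (0.26 ± 0.31, adjusted p = 0.755) were not called. Hes1, a transcriptional repressor induced by Notch, read 10.94 and 10.54 in CD103- cells, against 13.11 and 13.89 in cDC2 (-2.76 ± 0.39, adjusted p = 8.35e-05). Dtx1, a ubiquitin ligase that is itself a Notch target, read 4.90 and 5.19 in CD103- cells, against 9.05 and 8.96 in cDC2 (-3.22 or below, adjusted p = 3.01e-09). Both were lower on each CD103- array, and the CD103- mean of Dtx1 lay below background. Lfng, a glycosyltransferase that modifies Notch receptors, was lower (-1.31 ± 0.28, adjusted p = 0.00433), called no longer without cDC2 replicate 1 (adjusted p = 0.0643). The ligand Jag1 was higher (1.72 ± 0.36, adjusted p = 0.00384), called no longer without CD103- replicate 1 (adjusted p = 0.0988). The ligand Dll4 was higher (at least 0.22, adjusted p = 0.0112), with the call lost without cDC2 replicate 2 (adjusted p = 0.1), without CD103- replicate 1 (adjusted p = 0.221) and with the 4 arrays alone (adjusted p = 0.0608), and at the 99th percentile of olfactory receptors (6.87) both groups lay below background. Adam17, a membrane protease that can cut Notch receptors, was higher too (1.27 ± 0.26, adjusted p = 0.00362), called no longer without cDC2 replicate 1 (adjusted p = 0.075). Esam, an adhesion molecule that marks the Notch2-dependent cDC2 of the mouse, was higher by 0.96 ± 0.26, adjusted p = 0.027, a call lost without cDC2 replicate 2 (adjusted p = 0.265), without CD103- replicate 1 (adjusted p = 0.126), without CD103- replicate 2 (adjusted p = 0.103) and with the 4 arrays alone (adjusted p = 0.059).

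**Figure D2:**
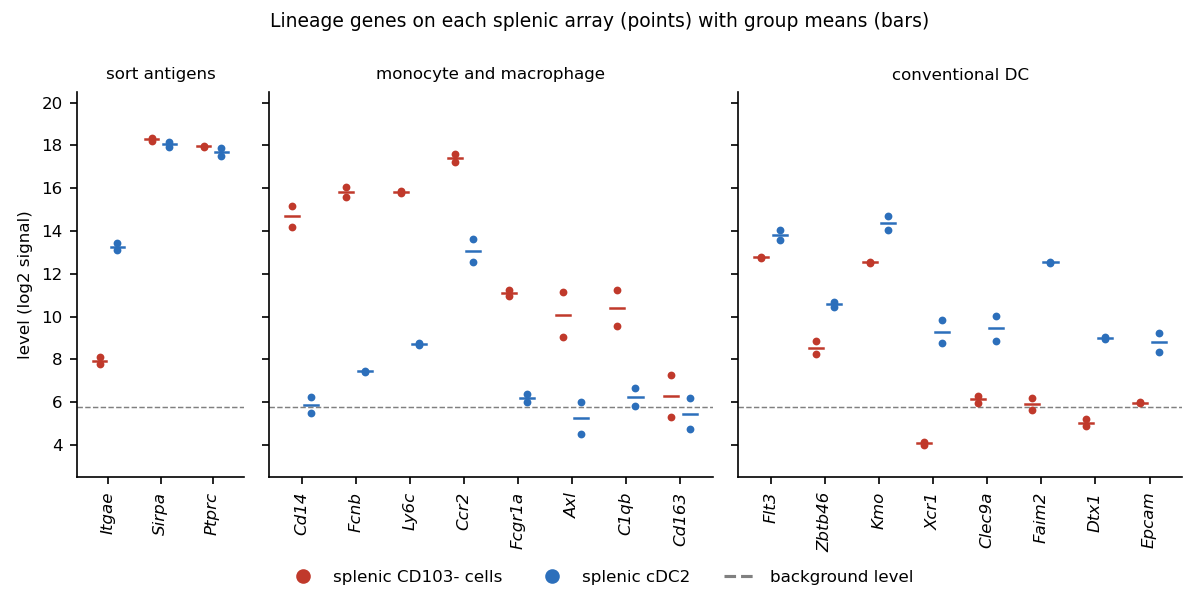
Levels in log2 signal (y axis) of lineage genes on each splenic array, with CD103- cells in red and cDC2 in blue, bars at the group means and a dashed line at the background level of 5.78. Cd14, Fcnb and Ly6c separate the groups in one direction and Itgae, Xcr1, Faim2 and Dtx1 in the other, while Sirpa and Ptprc lie side by side.

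Plasmacytoid DCs, which make type I interferon and in the rat carry CD45R, were checked through 14 markers, of which 5 were higher in CD103- cells and 2 lower, with 7 not called and a median difference of 0.55. Without splenic cDC2 replicate 1, 2 of them were higher. The members higher included Irf7 (4.30) and Bst2 (3.58), which the interferon list holds as well. Siglech, a lectin of plasmacytoid DCs, read 8.96 and 9.06 in CD103- cells, against 6.46 and 8.06 in cDC2 (1.75 ± 0.35, adjusted p = 0.00283), called no longer without cDC2 replicate 1 (adjusted p = 0.0545). Tcf4, the transcription factor of that lineage, read 14.12 and 13.90 in CD103- cells, against 12.78 and 13.08 in cDC2 (1.08 ± 0.23, adjusted p = 0.00449), called no longer without cDC2 replicate 1 (adjusted p = 0.0618) and without CD103- replicate 1 (adjusted p = 0.0562). The chemokine receptor Ccr9 was lower (-1.13 ± 0.30, adjusted p = 0.0223), with the call lost without cDC2 replicate 1 (adjusted p = 0.0889), without cDC2 replicate 2 (adjusted p = 0.113) and without CD103- replicate 2 (adjusted p = 0.202), and so was the inhibitory receptor Lair1 (-2.73 ± 0.41, adjusted p = 0.000164). The summed level of the list was 16.73 and 16.41 in CD103- cells, against 15.25 and 15.61 in cDC2. Its brightest member in CD103- cells was Bst2, at 15.53 and 15.07. What plasmacytoid DCs contributed was not tested.

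Of 102 markers of other cells in 7 lists, 11 were called (10.8%), against 9.02% of all clusters. The counts higher and lower were 1 and 1 of 20 for T cells, 1 and 2 of 14 for B cells, 1 and 0 of 13 for NK cells, 1 and 0 of 15 for neutrophils, 0 and 1 of 14 for erythroid cells, 0 and 0 of 11 for platelets and 1 and 2 of 15 for stromal cells. The T cell chains Cd3d, Cd3e and Cd3g averaged below background in both groups, as did the neutrophil granule genes Mpo and Elane and the platelet chemokines Pf4 and Ppbp. Of 15 neutrophil markers, 13 lay below background in both groups. Their summed level was 8.71 and 9.02 in CD103- cells, against 8.66 and 8.74 in cDC2. The B cell markers Ms4a1 (0.61 ± 0.53, adjusted p = 0.618) and Cd79a (1.14 ± 0.69, adjusted p = 0.422) were not called, and Cd79a was higher by 2.49 without cDC2 replicate 2 (adjusted p = 0.0287). B cell markers stood higher on replicate 2 for 11 of 14 in CD103- cells and 12 of 14 in cDC2. The share called was 21.4% for B cell and 20.0% for stromal markers. The tetraspanin Cd37 of B cells was higher (1.70 ± 0.23, adjusted p = 7.03e-05), and their inhibitory receptor Cd22 (-0.91) and surrogate light chain gene Vpreb3 (-0.97) were lower. The call of Cd22 was lost without cDC2 replicate 1 (adjusted p = 0.0818), without cDC2 replicate 2 (adjusted p = 0.0584), without CD103- replicate 1 (adjusted p = 0.055) and without CD103- replicate 2 (adjusted p = 0.0848), and that of Vpreb3 without cDC2 replicate 2 (adjusted p = 0.115), without CD103- replicate 1 (adjusted p = 0.0608) and without CD103- replicate 2 (adjusted p = 0.0756). Of the vascular genes, the VEGF receptor Kdr was higher (3.25 ± 0.59, adjusted p = 0.00124, and 2.08 without cDC2 replicate 1), and the angiopoietin receptor Tek (-1.46) and the cadherin Cdh5 (-0.88) were lower, Cdh5 called no longer without cDC2 replicate 2 (adjusted p = 0.346), without CD103- replicate 1 (adjusted p = 0.268), without CD103- replicate 2 (adjusted p = 0.0568), with the 4 arrays alone (adjusted p = 0.106) and with array weights (adjusted p = 0.0516). Klrk1, the NKG2D receptor of NK cells, was higher (2.70 ± 0.29, adjusted p = 3.25e-06). Sorted splenic cDC1 also read above background for Kdr (15.74 and 13.86), Tek (11.07 and 11.24), Cdh5 (9.02 and 9.15) and Klrk1 (15.13 and 15.53). These genes were thus not particular to vascular or NK cells here.

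Among 20 dissociation and stress genes, 3 were higher and 2 lower (25.0% called). The early response genes Egr2 (2.65 ± 0.37, adjusted p = 8.63e-05), Egr1 (1.61 ± 0.40, adjusted p = 0.0133) and Ier3 (1.49 ± 0.34, adjusted p = 0.00683) were higher. The call of Egr1 was lost without cDC2 replicate 1 (adjusted p = 0.176), without CD103- replicate 2 (adjusted p = 0.14) and with trend and robust in eBayes (adjusted p = 0.0562), and that of Ier3 without cDC2 replicate 2 (adjusted p = 0.0925) and without CD103- replicate 1 (adjusted p = 0.11). Fosb, a partner of Jun in AP-1 (-1.21 ± 0.26, adjusted p = 0.00562), and Ddit3, a factor of the endoplasmic reticulum stress response (-1.53 ± 0.29, adjusted p = 0.00161), were lower, Fosb called no longer without cDC2 replicate 1 (adjusted p = 0.0631) and without CD103- replicate 2 (adjusted p = 0.0751). Fos (0.07 ± 0.33, adjusted p = 0.948) and Jun (-0.05 ± 0.33, adjusted p = 0.968) were not called. What cell handling contributed to these differences was not tested.

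The MHC class II molecules were near the top of the scale in both groups. Of its 16 measured genes, 5 were higher in CD103- cells and 1 lower, with 10 not called and a median difference of 0.02. The higher count was 3 without splenic cDC2 replicate 1, 3 without splenic cDC2 replicate 2, 3 without splenic CD103- replicate 1 and 3 without splenic CD103- replicate 2. RT1-Da, the alpha chain of the rat class II molecule RT1-D, read 18.82 and 18.87 in CD103- cells, against 18.89 and 18.76 in cDC2 (0.02 ± 0.19, adjusted p = 0.977). RT1-Ba, the alpha chain of RT1-B, read 16.14 and 16.16 in CD103- cells, against 16.24 and 16.03 in cDC2 (0.02 ± 0.25, adjusted p = 0.987). The sort required class II on both groups, so these levels are a check. The members that were higher were mainly lysosomal proteases that cut antigen or the invariant chain. Lgmn, an asparaginyl endopeptidase, read 12.73 and 13.59 in CD103- cells, against 10.77 and 10.83 in cDC2 (2.36 ± 0.26, adjusted p = 5.84e-06), and Ctsb, cathepsin B, read 15.33 and 15.30 in CD103- cells, against 13.09 and 13.08 in cDC2 (2.23 ± 0.22, adjusted p = 1.19e-06). RT1-DOb, a chain of the DO molecule that restrains peptide loading, was lower (-1.13 ± 0.26, adjusted p = 0.00896), called no longer without cDC2 replicate 1 (adjusted p = 0.0583) and without CD103- replicate 1 (adjusted p = 0.0691).

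None of the 15 genes for loading of MHC class I was called in limma at an adjusted p under 0.05, at a median difference of -0.20. The peptide transporter subunits Tap1 (0.51 ± 0.25, adjusted p = 0.277) and Tap2 (-0.20 ± 0.28, adjusted p = 0.8) were among them. Costimulation and maturation genes were called in a minority, though the share called, 20.8%, was above the 9.02% of all clusters. Of 24 measured, 5 were higher in CD103- cells and 0 lower, with 19 not called and a median difference of 0.09, and the higher count was 3 without splenic cDC2 replicate 1 and 3 without splenic CD103- replicate 1. The CD28 ligands Cd80 (-0.81 ± 0.31, adjusted p = 0.131) and Cd86 (0.56 ± 0.24, adjusted p = 0.192) were not called. Cd40, the receptor for T cell help, was higher (1.12 ± 0.32, adjusted p = 0.0317), called no longer without cDC2 replicate 1 (adjusted p = 0.13), without cDC2 replicate 2 (adjusted p = 0.121), without CD103- replicate 1 (adjusted p = 0.316) and with the 12 DC arrays alone (adjusted p = 0.0556). The chemokines Ccl22 (2.81 ± 0.33, adjusted p = 9.58e-06) and Ccl17 (1.60 ± 0.32, adjusted p = 0.00282), which attract CCR4-bearing T cells, were higher.

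Chemokines formed one of the lists with the most calls. Of the 29 ligands, 19 were higher in CD103- cells and 0 lower, with 10 not called and a median difference of 1.70. Ccl3, a ligand of CCR1, read 18.13 and 17.77 in CD103- cells, against 12.16 and 12.82 in cDC2 (5.46 ± 0.59, adjusted p = 4.12e-06). Ccl4, a related chemokine, read 10.31 and 10.41 in CD103- cells, against 5.37 and 5.30 in cDC2 (at least 4.58, adjusted p = 2.72e-07). For both, each CD103- array stood above each cDC2 array. Cxcl11 read 13.10 and 12.46 in CD103- cells, against 4.48 and 4.60 in cDC2 (at least 7.0, adjusted p = 4.38e-11). Cxcl9 read 11.72 and 11.42 in CD103- cells, against 6.28 and 6.84 in cDC2 (5.01 ± 0.29, adjusted p = 2.28e-09), and Cxcl10 read 16.68 and 16.08 in CD103- cells, against 12.31 and 11.60 in cDC2 (4.43 ± 0.37, adjusted p = 2.15e-07). These 3 chemokines are induced by interferon and bind CXCR3, and the groups did not overlap for any of them. Ccl2, the ligand of CCR2, was higher by 2.73 ± 0.54, adjusted p = 0.00229.

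Receptors for chemokines and other attractants changed in both directions. Of the 33 measured, 11 were higher in CD103- cells and 4 lower, with 18 not called and a median difference of 0.45. Cmklr1, the chemerin receptor, read 13.04 and 12.32 in CD103- cells, against 3.72 and 5.56 in cDC2 (at least 6.90, adjusted p = 4.43e-08). C3ar1, the receptor for complement fragment C3a, read 11.84 and 10.85 in CD103- cells, against 5.04 and 5.46 in cDC2 (at least 5.56, adjusted p = 1.38e-10). Along with Ccr2, the inflammatory chemokine receptor Ccr1 (4.51) was higher. Cxcr3 was lower and read 8.26 and 8.17 in CD103- cells, against 12.53 and 12.96 in cDC2 (-4.53 ± 0.35, adjusted p = 8.91e-08). The receptor and its 3 ligands thus differed in opposite directions. The other called falls were in Xcr1, Ccr6 and Ccr9, given above.

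Cytokine genes were higher more often than lower. Of the 34 measured, 13 were higher in CD103- cells and 2 lower, with 19 not called and a median difference of 0.71. Il1a, an alarm cytokine of the interleukin 1 family, read 15.18 and 14.69 in CD103- cells, against 8.11 and 7.77 in cDC2 (7.0 ± 0.56, adjusted p = 1.09e-07). Il6, which drives the acute phase, read 10.02 and 9.75 in CD103- cells, against 4.83 and 5.17 in cDC2 (at least 4.10, adjusted p = 2.79e-06). Il10, which dampens inflammation, read 11.44 and 11.72 in CD103- cells, against 6.85 and 8.04 in cDC2 (4.14 ± 0.42, adjusted p = 2.17e-06). Inflammatory and anti-inflammatory cytokines were thus both higher. Tnf (3.70 ± 0.71, adjusted p = 0.00192) and the gp130 cytokine Osm (3.56 ± 0.52, adjusted p = 0.000126) were higher too. Il1b, at 18.27 and 18.25 in CD103- cells, against 17.55 and 17.18 in cDC2, was high in both groups and its difference was modest (0.90 ± 0.25, adjusted p = 0.027), called no longer without cDC2 replicate 2 (adjusted p = 0.232), without CD103- replicate 1 (adjusted p = 0.122), without CD103- replicate 2 (adjusted p = 0.107) and with the 4 arrays alone (adjusted p = 0.0651). Il22ra2 and the morphogen Bmp6 (-3.48 ± 0.46, adjusted p = 4.2e-05) were the 2 members that were lower.

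Among 32 cytokine receptors, 7 were higher in CD103- cells and 4 lower, with 21 not called and a median difference of 0.18. The higher count was 4 without splenic cDC2 replicate 2, 4 without splenic CD103- replicate 1 and 4 without splenic CD103- replicate 2 and the lower count 1 without splenic cDC2 replicate 1, 2 without splenic CD103- replicate 1 and 0 without splenic CD103- replicate 2. Csf2rb, the beta chain shared by the receptors for GM-CSF and interleukin 3, read 14.60 and 14.21 in CD103- cells, against 11.72 and 11.46 in cDC2 (2.82 ± 0.33, adjusted p = 1.03e-05). Il1rap, the accessory chain of the interleukin 1 receptor, was higher (1.63 ± 0.28, adjusted p = 0.000675), while Il1r1, its signalling chain, was lower (-1.60 ± 0.36, adjusted p = 0.00721), called no longer without cDC2 replicate 1 (adjusted p = 0.0877) and without CD103- replicate 2 (adjusted p = 0.16). The TGF-beta receptor Tgfbr2 was higher by 1.41 ± 0.22, adjusted p = 0.00028.

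Enzymes that make nitric oxide and itaconate were higher, as were some of the genes that supply arginine. Of 17 genes in a list of these routes and some other enzymes, 7 were higher in CD103- cells and 1 lower, with 9 not called and a median difference of 0.48. Gda and Sod2, which lie outside these routes, were among those higher. Acod1, which makes itaconate, read 14.50 and 13.02 in CD103- cells, against 6.14 and 6.71 in cDC2 (7.34 ± 0.43, adjusted p = 2.28e-09). Slc7a2, a transporter of arginine, read 11.34 and 10.15 in CD103- cells, against 5.32 and 5.05 in cDC2 (at least 4.96, adjusted p = 7.49e-10). Ass1, which rebuilds arginine from citrulline, read 12.61 and 11.74 in CD103- cells, against 7.66 and 6.65 in cDC2 (5.02 ± 0.55, adjusted p = 5.42e-06). For these 3, each CD103- array lay above each cDC2 array. Arg1, the arginase that competes for the same substrate, averaged below background in both groups, at 4.25 and 4.28 in CD103- cells, against 4.06 and 4.60 in cDC2. Of 21 NADPH oxidase and antioxidant genes, 10 were higher in CD103- cells and 1 lower, with 10 not called and a median difference of 1.08. Cybb, the catalytic subunit of the phagocyte oxidase, read 17.88 and 17.90 in CD103- cells, against 13.07 and 14.13 in cDC2 (4.29 ± 0.50, adjusted p = 9.93e-06). Its membrane partner Cyba (-0.06 ± 0.28, adjusted p = 0.949) and the cytosolic subunit Ncf1 (-0.49 ± 0.24, adjusted p = 0.268) were not called, and the GTPase Rac2 was lower (-1.45 ± 0.24, adjusted p = 0.000429). The cystine transporter Slc7a11 (2.77), thioredoxin reductase Txnrd1 (2.76) and the superoxide dismutase Sod2 (3.91) were higher.

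**Figure D3:**
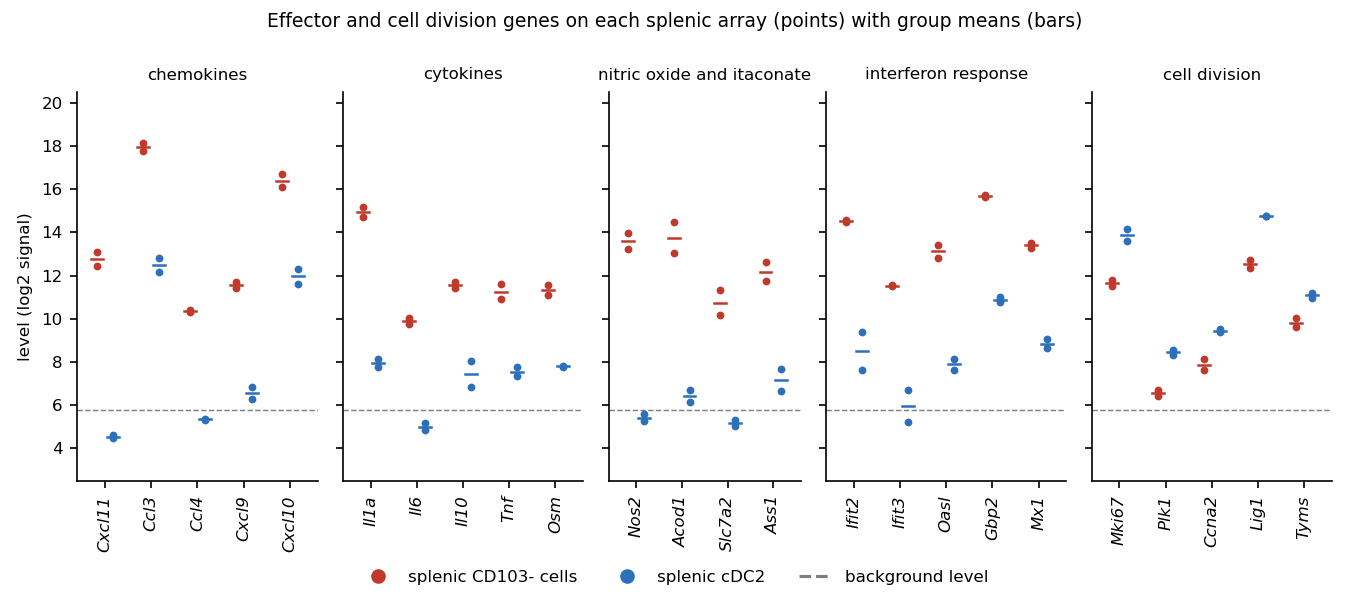
Levels in log2 signal (y axis) of effector and cell division genes on each splenic array, with CD103- cells in red and cDC2 in blue, bars at the group means and a dashed line at the background level of 5.78. Chemokine, cytokine, nitric oxide, itaconate and interferon response genes are higher on both CD103- arrays, and the cell division genes at the right are lower on both.

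Some sensors of microbes were higher. Of 28 Toll-like receptors and adaptors, 8 were higher in CD103- cells and 2 lower, with 18 not called and a median difference of 0.29, and the higher count was 5 without splenic CD103- replicate 1. Tlr8, a sensor of RNA in endosomes, read 12.14 and 12.79 in CD103- cells, against 8.53 and 8.86 in cDC2 (3.77 ± 0.32, adjusted p = 2.36e-07). Tlr5, the flagellin receptor, read 10.74 and 10.64 in CD103- cells, against 6.87 and 7.63 in cDC2 (3.44 ± 0.32, adjusted p = 8.36e-07). Irak3, a brake on Toll-like receptor signalling, differed by 3.13 ± 0.32, adjusted p = 2.47e-06. Tlr2, the lipopeptide receptor, was not called (0.57 ± 0.30, adjusted p = 0.33). Tlr3, a receptor for double-stranded RNA typical of cDC1, was lower (-1.60 ± 0.37, adjusted p = 0.00778), called no longer without cDC2 replicate 2 (adjusted p = 0.167) and without CD103- replicate 1 (adjusted p = 0.148). Of 23 cytosolic sensors and inflammasome genes, 11 were higher in CD103- cells and 1 lower, with 11 not called and a median difference of 0.75. The inflammasome receptor Nlrp3 read 15.61 and 15.89 in CD103- cells, against 12.21 and 12.52 in cDC2 (3.39 ± 0.30, adjusted p = 4.54e-07). The pyrin gene Mefv (2.41), the nucleic acid sensor Zbp1 (3.55) and the RNA sensor Ifih1 (2.07) were higher. Mb21d1, the older symbol for the DNA sensor cGAS, was the 1 member lower (-1.42 ± 0.24, adjusted p = 0.000522).

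Several receptors for fungi, antibody and complement were higher as well. Of 38 C-type lectins and paired receptors, 14 were higher in CD103- cells and 2 lower, with 22 not called and a median difference of 0.37. Clec4d, a receptor for mycobacterial and fungal lipids, read 10.71 and 8.27 in CD103- cells, against 3.60 and 3.60 in cDC2 (at least 3.71, adjusted p = 8.53e-07). Clec7a, the beta-glucan receptor dectin-1, read 15.75 and 15.74 in CD103- cells, against 11.61 and 11.03 in cDC2 (4.43 ± 0.32, adjusted p = 3.7e-08). Trem1, which amplifies inflammatory signals, read 11.63 and 10.89 in CD103- cells, against 7.43 and 6.52 in cDC2 (4.29 ± 0.38, adjusted p = 3.95e-07). The inhibitory receptor Lilrb4 was higher by 4.68 ± 0.29, adjusted p = 6.05e-09. Members of these families have similar sequences, and how far their probes were shared was not tested. Of 12 Fc receptor genes, 5 were higher in CD103- cells and 0 lower, with 7 not called and a median difference of 0.46. The IgG receptors Fcgr2a (2.87), Fcgr2b (2.32) and Fcgr3a (at least 2.01) were higher along with Fcgr1a. Of 26 complement genes, 12 were higher in CD103- cells and 0 lower, with 14 not called and a median difference of 0.71. Besides the C1q chains, Cd93 differed by 4.08 ± 0.34, adjusted p = 1.77e-07 and C3 by 2.70 ± 0.34, adjusted p = 2.22e-05.

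Interferon response genes gave the largest share of calls among the 43 lists. Of the 39 measured, 31 were higher in CD103- cells and 0 lower, with 8 not called and a median difference of 1.68. Of 20 receptors and signal transducers upstream of them, 5 were higher in CD103- cells and 0 lower, with 15 not called and a median difference of 0.32, and the count of these that were higher was 2 without splenic cDC2 replicate 2 and 2 without splenic CD103- replicate 1. Ifit2, an antiviral RNA-binding protein, read 14.49 and 14.59 in CD103- cells, against 7.60 and 9.37 in cDC2 (6.06 ± 0.48, adjusted p = 9.87e-08). Ifit3, a relative, read 11.55 and 11.51 in CD103- cells, against 5.20 and 6.70 in cDC2 (5.58 ± 0.36, adjusted p = 6.84e-09). Gbp2, a guanylate-binding protein induced by interferon gamma, read 15.73 and 15.63 in CD103- cells, against 11.01 and 10.76 in cDC2 (4.80 ± 0.29, adjusted p = 4.08e-09). Mx1, which blocks influenza viruses, read 13.52 and 13.29 in CD103- cells, against 8.64 and 9.05 in cDC2 (4.56 ± 0.24, adjusted p = 5.15e-10). For all 4, both CD103- arrays stood above both cDC2 arrays. Oasl, a sensor of double-stranded RNA in the oligoadenylate synthetase family, differed by 5.23 ± 0.50, adjusted p = 9.27e-07, and Irf7, which amplifies type I interferon, by 4.30 ± 0.38, adjusted p = 4.07e-07. The receptor chains Ifnar1 (-0.06 ± 0.23, adjusted p = 0.939) and Ifnar2 (0.20 ± 0.22, adjusted p = 0.731) were not called. The feedback inhibitor Socs3 was higher by 3.82 ± 0.60, adjusted p = 0.000285.

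The promoters are shown because most genes of the list were higher. An interferon-stimulated response element was searched on both strands as GAAA, any 2 bases and GAAA again, in the 250 bases before and 50 bases after the RefSeq gene start (GRCr8). Of the 28 interferon response genes with an entry, 22 held it (78.6%), against 3.77% of the 27457 promoters. It stood in 18 of the 23 that were called and in 4 of the 5 that were not. Among all genes, 7.33% of those higher, 3.39% of those lower and 3.10% of those not called held it. A match describes the letters and is not evidence of binding. Ifit3 (chr1:241527076-241527375, plus strand) and Gbp2 (chr2:234005477-234005776, plus strand) are printed 5′ to 3′ on the gene's strand, with matches on either strand in capitals.
Ifit3: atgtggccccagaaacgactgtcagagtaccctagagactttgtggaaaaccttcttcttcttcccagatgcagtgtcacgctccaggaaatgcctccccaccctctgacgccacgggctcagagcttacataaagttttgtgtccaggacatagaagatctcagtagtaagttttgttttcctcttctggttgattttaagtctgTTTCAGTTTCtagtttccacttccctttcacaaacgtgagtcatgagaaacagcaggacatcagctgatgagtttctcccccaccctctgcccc
Gbp2: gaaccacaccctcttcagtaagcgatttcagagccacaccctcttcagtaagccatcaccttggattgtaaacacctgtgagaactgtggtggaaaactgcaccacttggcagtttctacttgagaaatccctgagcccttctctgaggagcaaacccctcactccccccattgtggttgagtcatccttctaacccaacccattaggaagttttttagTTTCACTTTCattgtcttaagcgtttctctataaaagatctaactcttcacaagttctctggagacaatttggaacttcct

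Many genes of the lysosome and of lipid handling were higher. Of 39 lysosomal proteases and hydrolases, 19 were higher in CD103- cells and 2 lower, with 18 not called and a median difference of 0.60. Npc2, which carries cholesterol out of lysosomes, read 12.29 and 12.58 in CD103- cells, against 9.08 and 9.04 in cDC2 (3.38 ± 0.21, adjusted p = 3.59e-09). Grn, progranulin, differed by 2.96 ± 0.26, adjusted p = 3.95e-07 and Acp5, the tartrate-resistant phosphatase, by 3.0 ± 0.29, adjusted p = 1.38e-06. A second cluster for Acp5 lay at background in both groups. Ctse, an endosomal aspartic protease, was lower (-1.66 ± 0.24, adjusted p = 0.000103). The vacuolar ATPase, which acidifies these organelles, gave 2 higher of 17 and 0 lower at a median of 0.26, among them Atp6v1b2 (1.34 ± 0.24, adjusted p = 0.000846). Of 25 LXR targets and lipid handling genes, 14 were higher in CD103- cells and 0 lower, with 11 not called and a median difference of 1.06. Olr1, a receptor for oxidised lipoprotein, read 14.63 and 13.53 in CD103- cells, against 6.50 and 6.40 in cDC2 (7.63 ± 0.35, adjusted p = 1.38e-10). Nr1h3, the sterol-sensing receptor LXR alpha, read 12.10 and 12.28 in CD103- cells, against 7.20 and 8.66 in cDC2 (4.26 ± 0.32, adjusted p = 5.89e-08). Its known targets Abca1 (at least 3.07), Apoe (3.72) and Pltp (3.27) were higher. Sterol synthesis was called in 2 of 22 genes, both higher. The shares called, 11.8% for the vacuolar ATPase and 9.09% for sterol synthesis, were near the 9.02% of all clusters.

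Iron genes were higher more often than lower. Of 19 measured, 8 were higher in CD103- cells and 1 lower, with 10 not called and a median difference of 0.82. Slc11a1, which pumps iron and manganese out of the phagosome, read 12.27 and 12.24 in CD103- cells, against 4.22 and 5.39 in cDC2 (at least 6.47, adjusted p = 4.75e-11). Tfrc, the transferrin receptor, read 14.71 and 13.78 in CD103- cells, against 16.92 and 16.36 in cDC2 (-2.40 ± 0.44, adjusted p = 0.00132). Haem oxygenase Hmox1 (2.34 ± 0.33, adjusted p = 7.92e-05) and biliverdin reductase Blvra (2.43 ± 0.25, adjusted p = 2.12e-06) were higher, and the iron exporter Slc40a1 was higher by 2.64 ± 0.61, adjusted p = 0.00787, a call lost without cDC2 replicate 1 (adjusted p = 0.154), without CD103- replicate 2 (adjusted p = 0.114), with the 4 arrays alone (adjusted p = 0.0594) and with trend and robust in eBayes (adjusted p = 0.0776). Without cDC2 replicate 1 its difference was 1.27, and without cDC2 replicate 2 it was 4.01. Of 25 eicosanoid genes, 6 were higher in CD103- cells and 1 lower, with 18 not called and a median difference of 0.16. The prostaglandin E2 receptor Ptger4 read 12.75 and 12.22 in CD103- cells, against 8.40 and 8.59 in cDC2 (3.99 ± 0.36, adjusted p = 4.14e-07), and thromboxane synthase Tbxas1 differed by 3.49 ± 0.32, adjusted p = 7.15e-07. Among 25 glycolysis genes, 9 were higher in CD103- cells and 1 lower, with 15 not called and a median difference of 0.51, and the higher count was 5 without splenic cDC2 replicate 1, 4 without splenic cDC2 replicate 2 and 4 without splenic CD103- replicate 1. The glucose transporters went apart, with Slc2a6 higher (2.27 ± 0.34, adjusted p = 0.000163), Slc2a3 lower (-2.32 ± 0.28, adjusted p = 1.32e-05) and Slc2a1 not called (0.56 ± 0.34, adjusted p = 0.424). Pfkfb3, which sets the level of a glycolytic activator, was higher (2.18 ± 0.29, adjusted p = 4.96e-05).

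Many cell division genes were lower in CD103- cells. Of 32 genes of DNA replication and S phase, 0 were higher in CD103- cells and 13 lower, with 19 not called and a median difference of -0.64, and the lower count was 7 without splenic cDC2 replicate 1, 8 without splenic cDC2 replicate 2 and 5 without splenic CD103- replicate 2. Of 32 mitosis genes, 0 were higher in CD103- cells and 14 lower, with 18 not called and a median difference of -0.93, and the lower count was 7 without splenic cDC2 replicate 2 and 8 without splenic CD103- replicate 2. Mki67, a nuclear protein of cycling cells, read 11.80 and 11.52 in CD103- cells, against 13.60 and 14.14 in cDC2 (-2.21 ± 0.39, adjusted p = 0.000972). Plk1, a kinase of mitosis, read 6.42 and 6.69 in CD103- cells, against 8.33 and 8.57 in cDC2 (-1.90 ± 0.36, adjusted p = 0.00183). Lig1, which joins Okazaki fragments, read 12.71 and 12.33 in CD103- cells, against 14.77 and 14.74 in cDC2 (-2.24 ± 0.28, adjusted p = 2.51e-05). Each was above background on all 4 arrays and lower on both CD103- arrays. Ccna2 (-1.57 ± 0.24, adjusted p = 0.000242), Uhrf1 (-1.56 ± 0.28, adjusted p = 0.000893) and Tyms (-1.27 ± 0.25, adjusted p = 0.00242) were lower too, while the helicase subunits Mcm2 (-0.73 ± 0.30, adjusted p = 0.17) and Mcm3 (-0.43 ± 0.24, adjusted p = 0.37) were not called. No member of either list was called higher in limma at an adjusted p under 0.05.

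The promoters of the cell division genes were searched in the same way. The letters TTTGAA, the cell cycle genes homology region, stood in 19 of 27 mitosis promoters (70.4%), against 18.1% of all promoters. The E2F-type letters TTTNGCGC stood in 12 of 26 promoters of the S phase list (46.2%), against 1.37%. In both lists, called and uncalled members held them, with 9 of 11 called and 10 of 16 uncalled for mitosis and 6 of 12 called and 6 of 14 uncalled for S phase. Among all genes, TTTGAA stood in 11.6% of those higher, 17.7% of those lower and 15.3% of those not called. Genes lower thus held it no more often than all promoters. For the E2F-type letters the shares were 1.18%, 3.83% and 1.72%. Plk1 (chr1:186147408-186147707, plus strand) and Lig1 (chr1:83242920-83243219, plus strand) are printed from the same table, with matches in capitals.
Plk1: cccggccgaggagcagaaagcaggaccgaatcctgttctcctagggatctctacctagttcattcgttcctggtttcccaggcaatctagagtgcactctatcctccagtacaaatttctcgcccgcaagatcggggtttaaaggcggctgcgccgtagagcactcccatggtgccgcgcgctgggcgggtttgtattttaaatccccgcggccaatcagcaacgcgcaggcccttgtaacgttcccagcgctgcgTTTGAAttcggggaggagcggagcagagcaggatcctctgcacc
Lig1: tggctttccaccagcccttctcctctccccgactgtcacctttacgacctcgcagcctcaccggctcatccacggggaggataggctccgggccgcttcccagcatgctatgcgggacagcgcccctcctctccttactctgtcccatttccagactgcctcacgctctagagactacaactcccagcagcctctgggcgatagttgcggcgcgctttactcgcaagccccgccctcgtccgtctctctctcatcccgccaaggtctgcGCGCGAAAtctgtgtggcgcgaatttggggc

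Transcription factors of myeloid cells changed in both directions. Of 48 measured, 17 were higher in CD103- cells and 6 lower, with 25 not called and a median difference of 0.19. The lower count was 3 without splenic cDC2 replicate 2. Tfec, a relative of MITF, read 13.64 and 13.77 in CD103- cells, against 5.54 and 7.18 in cDC2 (7.35 ± 0.40, adjusted p = 7.79e-10). Cebpb, a factor of inflammatory gene induction, read 9.96 and 9.19 in CD103- cells, against 5.54 and 4.97 in cDC2 (at least 3.79, adjusted p = 1.36e-07). Prdm1, the repressor Blimp-1, read 11.79 and 11.89 in CD103- cells, against 7.49 and 6.55 in cDC2 (4.82 ± 0.31, adjusted p = 6.76e-09). Each was higher on both CD103- arrays. Besides Zbtb46, the factors Zeb1 (-1.75 ± 0.22, adjusted p = 2.22e-05) and Ahr, the aryl hydrocarbon receptor (-1.60 ± 0.25, adjusted p = 0.000238), were lower. Irf4, which cDC2 depend on in the mouse, was lower (-0.97 ± 0.27, adjusted p = 0.031), called no longer without cDC2 replicate 1 (adjusted p = 0.123), without cDC2 replicate 2 (adjusted p = 0.125), without CD103- replicate 2 (adjusted p = 0.316) and with the 4 arrays alone (adjusted p = 0.0772), and Klf4 was not called (-0.99 ± 0.41, adjusted p = 0.173).

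Integrins and matrix genes separated the groups further. Of 33 adhesion and junction genes, 8 were higher in CD103- cells and 5 lower, with 20 not called and a median difference of 0.22, and the lower count was 3 without splenic cDC2 replicate 1. Itgae was among the genes lower, as the gate on CD103 had set. Its partner Itgb7 was not called, at 9.47 and 8.92 in CD103- cells, against 8.26 and 8.88 in cDC2 (0.63 ± 0.29, adjusted p = 0.232). Itgal, the alpha chain of LFA-1, was higher (2.12 ± 0.22, adjusted p = 2.12e-06), as were Itga5 (2.55 ± 0.23, adjusted p = 4.69e-07), which binds fibronectin, and Itga6 (2.05 ± 0.26, adjusted p = 3.16e-05), which binds laminin. Of 28 matrix and fibrinolysis genes, 10 were higher in CD103- cells and 1 lower, with 17 not called and a median difference of 0.26. Tgfbi, a matrix protein induced by TGF-beta, read 12.07 and 11.44 in CD103- cells, against 5.86 and 6.14 in cDC2 (5.76 ± 0.30, adjusted p = 4.55e-10). Fn1, fibronectin, read 12.12 and 10.73 in CD103- cells, against 5.47 and 6.13 in cDC2 (5.63 ± 0.40, adjusted p = 3.2e-08). The elastase Mmp12 (4.09 ± 0.35, adjusted p = 2.99e-07) and the plasminogen activator Plau (4.04 ± 0.49, adjusted p = 1.47e-05) were higher, and the gelatinase Mmp9 was lower (-1.18 ± 0.24, adjusted p = 0.00294).

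**Figure D4:**
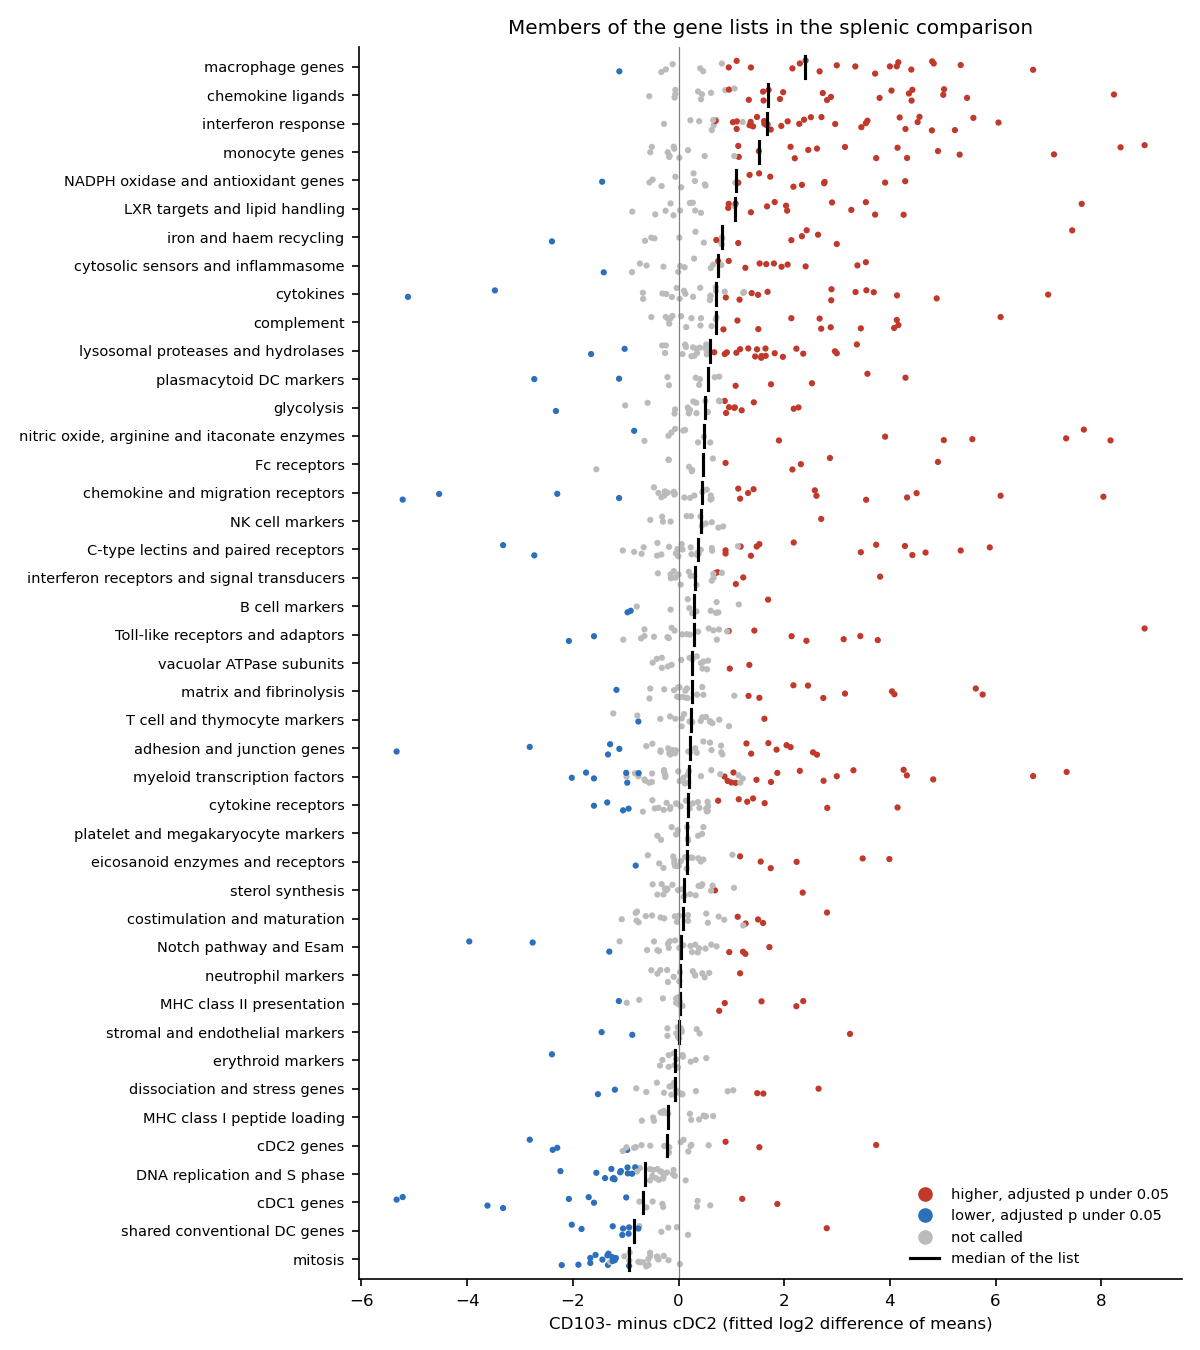
Fitted log2 differences between splenic CD103- cells and splenic cDC2 (x axis) for the measured members of 43 gene lists (rows on the y axis, ordered by median), with 1 point per gene, red where higher and blue where lower at an adjusted p under 0.05, grey otherwise, and a black bar at each median. Medians run from -0.93 for mitosis to 2.40 for macrophage genes, and every member left of -2 was called lower.

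The last question was which of these differences depended on the organ. The same contrast in the thymus used other arrays, and the interaction is the splenic difference minus the thymic one. It was called for 823 clusters (3.55%), with 491 above 0 (2.12%) and 332 below 0 (1.43%), and 416 of the 823 were also called in the spleen. The number below 0 was 199 without thymic CD103- replicate 2, 217 without thymic cDC2 replicate 1 and 220 without thymic cDC2 replicate 2. Splenic DCs were enriched on a density gradient and thymic ones with MHC class II beads, so organ and enrichment cannot be told apart. The interaction is given on fitted values, also where a group mean lay below background.

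Acod1 differed by 7.34 in the spleen and 0.63 in the thymus (interaction 6.71 ± 0.61, adjusted p = 4.25e-06). Nos2 differed by at least 7.81 in the spleen and at least 1.12 in the thymus (interaction 5.63 ± 0.60, adjusted p = 1.93e-05). The fitted difference of both enzymes was larger in the spleen. Lyve1 differed by at least 4.19 in the spleen and -2.40 in the thymus (interaction 6.81 ± 0.70, adjusted p = 1.33e-05). The sorting receptor Sorl1 differed by at least 4.49 in the spleen and -0.13 in the thymus (interaction 5.10). Xanthine dehydrogenase Xdh differed by 5.74 in the spleen and 0.92 in the thymus (interaction 4.82). Hcar2, Gda and S100a4 were also among the 8 largest above 0.

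Faim2 differed by -6.63 in the spleen, while its thymic means of 4.34 in CD103- cells and 4.61 in cDC2 lay below background (fitted interaction -6.35 ± 0.55, adjusted p = 2.77e-06). Hes1 differed by -2.76 in the spleen and 2.04 in the thymus (interaction -4.80 ± 0.55, adjusted p = 3.58e-05). Its difference thus had opposite signs in the 2 organs. Dtx1 differed by -3.22 or below in the spleen, while its thymic means were 4.17 in CD103- cells and 4.50 in cDC2 (fitted interaction -3.63 ± 0.34, adjusted p = 4.99e-06). Cxcr3 differed by -4.53 in the spleen, with thymic means of 5.52 in CD103- cells and 5.60 in cDC2 (fitted interaction -4.45 ± 0.50, adjusted p = 3.19e-05). Faim2, Dtx1 and Cxcr3 thus averaged below background in both thymic groups, and no thymic difference can be read for them. The membrane collagenase Mmp14 was higher in both organs, by at least 0.62 in the spleen and at least 6.74 in the thymus (fitted interaction -4.65 ± 0.38, adjusted p = 1.74e-06). At the 99th percentile of olfactory receptors both splenic means of Mmp14, 6.41 in CD103- cells and 3.67 in cDC2, lay below background. Complement C3 was higher in both organs, by 2.70 in the spleen and 6.30 in the thymus (interaction -3.60).

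**Figure D5:**
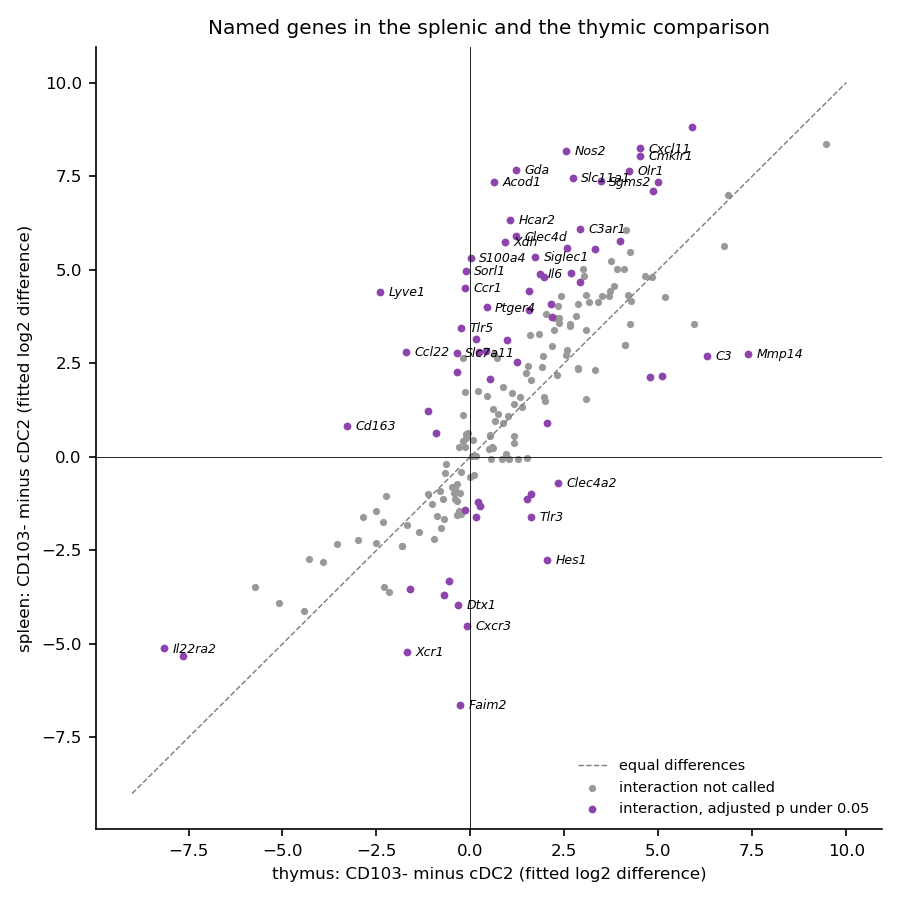
Fitted log2 difference of CD103- cells minus cDC2 in the spleen (y axis) against the same difference in the thymus (x axis), with 1 point per named gene, purple where the interaction had an adjusted p under 0.05 and grey otherwise, and a dashed line where the differences are equal. Acod1 and Nos2 lie far above the line, and Faim2, Hes1 and Mmp14 lie below it.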

How the data were processed

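Each sorted population was profiled by Clariom S rat array. The comparison uses the 4 arrays of splenic CD103- cells and splenic cDC2 with the other 12 of the 16 in the fit. The deposited values are log2 signals that the authors made with the Transcriptome Analysis Console, per the submitters' processing notes, which give no version. The normalization and background correction are not given in the sources used here. A pair of deposited tables held the same values (largest difference 0). Columns were used as deposited, with no scaling and no filter on dim clusters.

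All 16 arrays entered one limma fit (version 3.58.1, under R 4.3.3) with a mean for each of 8 groups. After eBayes it had 8 residual degrees of freedom and 9.21 from the prior. Tests were two-sided, with Benjamini-Hochberg adjustment over 23188 clusters and calls at an adjusted p under 0.05. The steps were tested on simulated data. The number of arrays limits the precision.

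Of the clusters, 21502 carried 1 symbol, 1673 several and 13 none. Of 27 symbols turned into dates by a spreadsheet, 23 were restored. The cluster with the highest mean stood for a gene. Background was the 95th percentile of olfactory receptor clusters (5.78).

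Named genes were the given markers and sort antigens, the 15 largest called differences per direction, the 5 largest called per direction and the first 3 members of each of 43 lists, and the 8 largest interactions per direction. A choice was made among these, some genes are not reported here, and LOC102551901 was added after its values were seen. The members, lists and rule were chosen with earlier results of these data known.

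Promoters came from RefSeq (GRCr8). The alternatives were the 4 arrays alone, the 12 DC arrays, array weights, a dim filter (13963 clusters kept), median centring, quantile normalization, a replicate block, eBayes with trend and robust, the other deposited table, and each array left out. Counts per list with an array left out were added after seeing the data.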

Additional observations from a re-analysis of the deposited data

Results flagged for a closer look

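Of the 204 genes named in the text and present in the naming rule, 68 had a CD103- to cDC2 difference that was not the same in spleen and thymus by limma's interaction test (adjusted p under 0.05), 47 above 0 and 21 below 0. The interaction is the splenic difference minus the thymic one on the log2 scale, given after each name and without bounds. A group mean lay below background for 26 of them, and both thymic means did for 7 (Clec4d, Ctnnd2, Cxcr3, Dtx1, Faim2, Vcan and Xcr1), for which no thymic difference can be read. Some of these genes were named because their interaction was large, and no explanation was weighed. Genes are grouped here for reading and not by list. Metabolic enzymes and transporters above 0 were Acod1 6.71, Nos2 5.63, Slc7a2 2.25, Gda 6.45, Xdh 4.82, Slc7a11 3.13, Sod2 2.36 and Slc2a6 2.63. Pattern recognition, lectin and Fc receptor genes above 0 were Cd14 2.92, Tlr5 3.68, Irak3 2.14, Clec4d 4.68, Clec7a 2.86, Clec12a 1.57, Lilrb4 1.75, Siglec1 3.61, Fcgr1a 2.23 and Olr1 3.40. Chemokine, cytokine and attractant receptor genes above 0 were Ccl22 4.52, Cxcl11 3.73, Ccr1 4.66, Cmklr1 3.54, C3ar1 3.19, Il6 3.05, Csf2rb 2.40, Ptger4 3.56, Hcar2 5.28 and Il22ra2 3.03. Interferon response genes above 0 were Ifit3 3.0, Gbp2 2.83 and Ifih1 1.55. Adhesion and matrix genes above 0 were Itga5 1.31, Itgae 2.31, Itgb7 1.55, Vcan 3.0, Mmp12 1.95, Tgfbi 1.77, Adam19 2.57 and Lyve1 6.81. The remaining genes above 0 were Ly6c 2.24, S100a4 5.31, Cd163 4.11, Slc11a1 4.72, Sgms2 3.90, Sorl1 5.10, Dll4 2.35 and Tfec 2.37. Below 0, the genes of the Notch and cDC1 lists were Hes1 -4.80, Dtx1 -3.63, Lfng -1.56, Xcr1 -3.53, Clec9a -2.74 and Tlr3 -3.21. Other receptors and adhesion genes below 0 were Cxcr3 -4.45, Clec4a2 -3.04, Clec4a3 -1.15, Fcgr3a -2.95, Itgal -2.65 and Vcam1 -2.62. The remaining genes below 0 were Faim2 -6.35, C3 -3.60, Mmp14 -4.65, Ctnnd2 -3.0, Rtn1 -1.91, Ahr -1.76, Klf4 -2.60, Fosb -1.41 and Mb21d1 -1.27. Itgae and Il22ra2 were lower in both organs, and their values above 0 stand for a smaller fall in the spleen. Fcgr3a, Itgal, Clec4a3, C3 and Mmp14 were higher in both, and their values below 0 stand for a smaller rise in the spleen. Cd163 and Itgb7 were lower in the thymus and not called in the spleen. Clec4a2 and Klf4 were higher in the thymus and not called in the spleen. Hes1, Vcam1 and Tlr3 were lower in the spleen and higher in the thymus, and Ccl22, Dll4 and Lyve1 the reverse. With an array of either organ left out, the interaction call of 51 of the 68 genes was kept each time. It was lost at least once for 17, which were Clec12a, Clec4a3, Cmklr1, Fosb, Il6, Irak3, Itga5, Itgb7, Klf4, Lfng, Lilrb4, Mb21d1, Mmp12, Sgms2, Siglec1, Tfec and Tgfbi. Among these the highest adjusted p lay between 0.0701 for Irak3 without thymic cDC2 replicate 2 and 0.214 for Sgms2 without thymic CD103- replicate 2.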

How the results depend on the processing

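With 1 array left out in turn, the count of clusters lower in CD103- cells ranged from 539 to 699, against 977 with all arrays, and the count higher from 819 to 895, against 1115. The interaction counts ranged from 199 to 286 below 0, against 332, and from 352 to 462 above 0, against 491. The causes were not tested beyond the loss of samples. The other alternatives that were run kept both splenic counts within 1.5 times, from 898 higher and 665 lower with the 4 arrays alone to 1165 and 1038 with the dim filter. Of 169 called genes among those named, 143 kept their call in every alternative and 26 lost it with an array left out, 9 of these in another alternative as well, and 0 reversed. Of 35 uncalled ones, 2 gained a call with an array left out (Cd163 and Cd79a). Of 28 list counts of 1 or 2 members, 20 moved by over 1.5 times with an array left out. At the 99th percentile of olfactory receptors (6.87), 3 of 29 bounded differences had no bound. The replicate numbers could be checked for 1 pair of groups, whose deviations correlated at 0.176 across clusters, and the labels do not say that a number marks a shared animal. With the number as a replicate block there were 2187 calls, 1156 higher and 1031 lower, of which 2071 were shared with the fit without it, and it ended no call of a named gene. Signals near background limit what can be said of 105 clusters called with both means below it.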
